A study of Mus musculus with 4 samples.

Results

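Txnip and Arrdc4, 2 of the 32285 genes counted in 4 mouse single-cell libraries, were taken by their symbols and described across cell types and treatments. Both encode alpha-arrestins, adaptor proteins that direct the sorting and turnover of other membrane proteins. Txnip, the thioredoxin-interacting protein, binds thioredoxin and promotes removal of the glucose transporter GLUT1 (Slc2a1) from the cell surface, and Arrdc4 is its close relative, whose raised expression also lowers glucose uptake in cultured cells. Both genes are known targets of MondoA (Mlxip) and ChREBP (Mlxipl), which act with Mlx and respond to phosphorylated hexoses. The glucose analogue 2-deoxy-D-glucose (2DG) is phosphorylated by hexokinase but not used further in glycolysis, and its phosphate is known to activate MondoA in cultured cells. In lymphocytes, Txnip is known as a gene of the resting state.

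The libraries came from a study on targeting glycomes and checkpoint blockade in ovarian tumours, and all are labelled as lymph node. There was 1 library per group: 2DG with aPDL1 (2DG_aPDL1, called the combination here), 2DG alone, aPDL1 alone, and ctrl, an otherwise undescribed control. The labels do not spell out aPDL1 and give no dose, duration, strain or age per library, and the series design speaks of young and aged mice without tying them to libraries. RNA was read at the 3' ends of polyadenylated transcripts from single cells in droplets, with a molecular identifier (UMI) per transcript molecule, and such counts do not scale with transcript length. Since each group was 1 library, no spread between animals could be estimated, no test was made, and library and treatment cannot be told apart.

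After filtering, 8554 cells of the combination, 7390 of 2DG, 8338 of aPDL1 and 8389 of ctrl were kept. The matrices held 61859753 to 73885214 UMIs per library, and 22 to 30 barcodes were shared by any 2 libraries, at most 0.345% of the smaller one. Classes of cells were gated on marker genes, and Txnip and Arrdc4 were used neither for the gates nor for the clusters. Lymph nodes are known for T and B cells, but the B gate held 0.846% to 5.07% of cells and the monocyte or macrophage gate 29.5% to 35.8%. The ctrl library stood apart. Neutrophils made up 3.8% of cells in the combination, 4.75% in 2DG and 3.62% in aPDL1, against 33.4% in ctrl, and CD8 T cells made up 19.3%, 17.8% and 18.7% in the same order, against 1.32% in ctrl. Of the 30 Leiden clusters, 6 were mostly ctrl cells, and these held 446 combination, 507 2DG, 718 aPDL1 and 5668 ctrl cells. Cells in more than 1 gate (6.91% to 13.1% per library) or none (11.5% to 14.3%) were left out of the classes.

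Txnip (ENSMUSG00000038393) lies at chr3:96557957-96561883 on the plus strand of GRCm38, and its longest annotated transcript has 8 exons and 2827 bases. Arrdc4 (ENSMUSG00000042659) lies at chr7:68736995-68749241 on the minus strand, and its longest transcript has 8 exons and 3905 bases. The 250 bases before the RefSeq start of each gene (build GRCm38.p6) are shown because factors of the MondoA family are known to bind paired CACGNG motifs. The Txnip stretch is chr3:96557707-96557956 (+) and the Arrdc4 stretch is chr7:68749239-68749488 (-). Capitals mark CACGNG on either strand.
Txnip: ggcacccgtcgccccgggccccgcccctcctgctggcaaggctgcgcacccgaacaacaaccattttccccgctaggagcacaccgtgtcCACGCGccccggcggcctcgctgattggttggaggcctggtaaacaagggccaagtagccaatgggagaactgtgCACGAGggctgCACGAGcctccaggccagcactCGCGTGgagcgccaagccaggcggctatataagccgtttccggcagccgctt
Arrdc4: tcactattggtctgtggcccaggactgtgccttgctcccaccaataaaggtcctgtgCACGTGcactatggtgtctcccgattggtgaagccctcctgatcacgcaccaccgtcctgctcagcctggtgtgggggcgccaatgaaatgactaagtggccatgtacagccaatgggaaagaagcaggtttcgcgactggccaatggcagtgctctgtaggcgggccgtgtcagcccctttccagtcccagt
Txnip carried CACGNG 4 times, and 2 of these matches, at bases -85 to -69 before the start, formed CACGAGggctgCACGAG, the paired motif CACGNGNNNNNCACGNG. On either strand, 15 of 32851 RefSeq promoter stretches of this length held the paired motif (0.0457%), whereas 7723 held a single CACGNG (23.5%). Arrdc4 had no match to the paired motif in this window and had CACGTG at -193 to -188, which reads the same on both strands. The CCAAT motif, present in 33.8% of the stretches, was found 2 times in Txnip and 6 times in Arrdc4 over both strands. These matches describe letters only, and no binding was measured.

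Levels are given as CPM, the UMIs of a gene scaled to a fixed total of the class, with exact Poisson 95% intervals that cover counting error only. CPM were compared between cells for one gene at a time and not between the genes.

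Txnip was found in all 9 classes, with neutrophils highest and dendritic cells lowest in each library, although in the combination regulatory T and dendritic cells did not differ beyond counting error. Neutrophils had 453 CPM in the combination (416 to 492), 447 in 2DG (414 to 482), 378 in aPDL1 (343 to 415) and 381 in ctrl (371 to 391). Dendritic cells had 61.9 CPM in the combination, 74.5 in 2DG, 99.5 in aPDL1 and 92.5 in ctrl. The lymphoid classes lay between, and many neighbours in the order did not differ beyond counting error, such as NK and CD8 T cells in 2DG at 224 and 222 CPM. In ctrl, monocytes or macrophages and dendritic cells, at 102 and 92.5 CPM, did not differ beyond counting error either. Outside the clusters mostly of ctrl, neutrophils had 97.1, 163 and 150 CPM in the combination, 2DG and aPDL1, and 99.9 in ctrl. Monocytes or macrophages outside them had 129, 202 and 182 CPM, and 171 in ctrl. Those clusters held 74.2%, 75.8% and 68.5% of gated neutrophils in the combination, 2DG and aPDL1, and 96.2% in ctrl. Leaving them out therefore removes most neutrophils and cannot check the top rank. With classes from clusters, neutrophils were highest in each library, at 638, 546 and 487 CPM, and 389 in ctrl. With gates of 3 markers they were too, at 603, 547 and 447 CPM, and 388 in ctrl. With classes from clusters, dendritic cells were not lowest in aPDL1, at 132 CPM against 129 in regulatory T cells. Nor were they lowest in ctrl, at 103 CPM against 98.3 in monocytes or macrophages. The largest cluster taken as dendritic, cluster 15, held 239 dendritic cells among 533 gated cells. Gates of 3 markers kept dendritic cells lowest in each library, at 46, 61.5 and 76.4 CPM, and 87.1 in ctrl. Within neutrophils, the Txnip level over all libraries was 712 CPM in cluster 5, 367 in cluster 4 and 120 in cluster 26. Cluster 5 was led by haemoglobin genes such as Hbb-bs, cluster 4 by genes that included Cxcl3 and the hypoxia-linked Hilpda, and cluster 26 by the granule genes Camp, Ngp and Ltf.

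Arrdc4 had another order, with no UMI in B cells and a split among T cells. Neutrophils again stood highest, although in 2DG and ctrl they did not differ beyond counting error from the next class. They were at 74.3 CPM in the combination (60.0 to 91.0), 52.2 in 2DG (41.3 to 65.1), 73.4 in aPDL1 (58.7 to 90.8) and 74.4 in ctrl (70.0 to 79.0). In neutrophils outside the clusters mostly of ctrl, Arrdc4 was at 26.3, 26.6 and 26.7 CPM in the combination, 2DG and aPDL1, and 24.7 in ctrl. These came from 16, 19 and 16 UMIs, and 21 in ctrl. Monocytes or macrophages outside those clusters had 45.6, 45.1 and 42.0 CPM, and 31.6 in ctrl. Since those clusters held most neutrophils, leaving them out cannot check the top rank. With classes from clusters, neutrophils were highest in each library, at 100, 60.2 and 88.4 CPM, and 76.2 in ctrl. Monocytes or macrophages as a whole had 48.0, 48.3 and 46.8 CPM in the combination, 2DG and aPDL1, and 46.8 in ctrl. CD8 T cells had 4.33, 5.95 and 3.65 CPM in the combination, 2DG and aPDL1, from 47, 54 and 38 UMIs, and 9.6 CPM in ctrl, from 8 UMIs. Not 1 Arrdc4 UMI was counted among 4607351 UMIs of 831 B cells, which allows up to 0.651 CPM at a floor of 3 UMIs and up to 0.361% of cells with a UMI. Txnip was detected in 53.3% of the same B cells. With gates of 3 markers or with classes from clusters, the aPDL1 B cells held 2 Arrdc4 UMIs and the other libraries 0.

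Regulatory T cells, defined by Foxp3, were the T cell class with much Arrdc4. Their level was 43.5 CPM in the combination (31.8 to 58.0), 47.5 in 2DG (39.1 to 57.2), 34.1 in aPDL1 (25.3 to 45.0) and 53.6 in ctrl (35.3 to 77.9). Conventional CD4 T cells had 6.64 CPM in the combination (3.72 to 11), 8.78 in 2DG (6.12 to 12.2), 12.5 in aPDL1 (8.41 to 17.8) and 9.17 in ctrl (3.96 to 18.1). The intervals of the CD4 classes did not overlap in any library. Regulatory over conventional CD4 T cells gave log2 ratios of 2.68 in the combination (1.84 to 3.66), 2.42 in 2DG (1.88 to 3.03), 1.44 in aPDL1 (0.77 to 2.16) and 2.48 in ctrl (1.37 to 3.89), or 6.4-, 5.36-, 2.72- and 5.6-fold in that order. Txnip had log2 ratios of -1.25, -0.30, -0.27 and -0.07 in the same order of libraries, and only the ctrl interval (-0.51 to 0.34) held 0. Cells without a Foxp3 UMI fell into the conventional gate. Over all libraries, 21.3% of regulatory T cells had an Arrdc4 UMI, against 4.35% of conventional CD4 T cells and 0% of B cells, whose median depths per library were 4974 to 6455, 5193 to 6545 and 4458 to 5316 UMIs per cell in that order. The 5 monocyte or macrophage markers summed to 3.97 to 13.6 CPM in regulatory T cells and 1782 to 2202 in their own class, and the 6 neutrophil markers to 179 to 303 CPM in regulatory and 113 to 372 in conventional CD4 T cells, with 1 of the 6 at 0 in regulatory T cells. The 6 dendritic markers summed to 43.6 to 90.8 CPM in regulatory and 36.2 to 61.9 CPM in conventional CD4 T cells, and to 1187 to 1959 CPM in dendritic cells. The part of such RNA in the Arrdc4 values was not tested. Among regulatory T cells with 2 or more checkpoint genes, such as Pdcd1 and Lag3, Arrdc4 was at 51.5, 57.3, 43.5 and 73.3 CPM in the combination, 2DG, aPDL1 and ctrl.

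**Figure D1:**
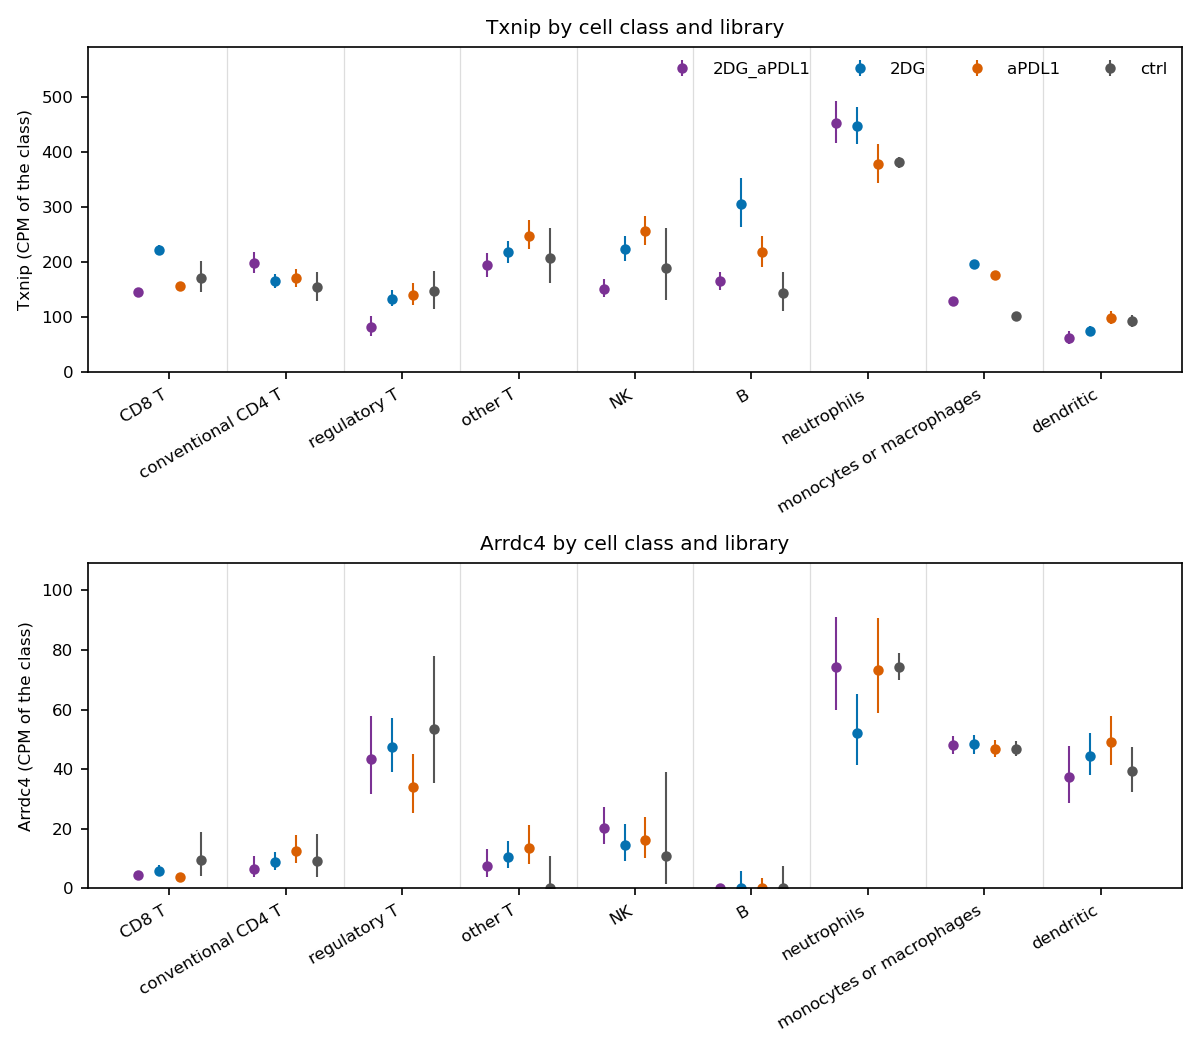
Txnip (top) and Arrdc4 (bottom) in 9 cell classes and 4 libraries, in CPM on linear axes, with exact Poisson 95% intervals as bars. Neutrophils are highest for both genes, Txnip spans all classes, and Arrdc4 is at 0 in B cells and at 34.1 to 53.6 in regulatory T cells, above the other T cell classes.

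Within T cells, Txnip as CPM was lower in cycling cells, which held more UMIs per cell. In CD8 T cells with 2 or more of Mki67, Top2a, Birc5 and Cdk1, Txnip was at 91.0 CPM in the combination, 118 in 2DG, 98.9 in aPDL1 and 62.9 in ctrl, against 147, 221, 155 and 181 CPM in cells with checkpoint genes, in the same order. The log2 ratios of cycling over checkpoint cells were -0.69, -0.90 and -0.65 in the combination, 2DG and aPDL1, and -1.48 in ctrl, which had 13 cycling cells. All 4 intervals lay below 0. Cycling CD8 T cells had a mean of 10579 to 14683 UMIs per cell and checkpoint cells 6422 to 7069. Per cell, cycling cells had 0.979 Txnip UMIs in the combination, 1.25 in 2DG, 1.06 in aPDL1 and 0.923 in ctrl, and checkpoint cells had 0.946, 1.5, 1.02 and 1.28 in that order, so that the mean per cell was not lower in cycling cells of the combination and aPDL1. Conventional CD4 T cells gave cycling over checkpoint ratios of -0.67, -0.93, -0.93 and -2.06 in the same order, the last from 4 UMIs.

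Over all cells together, Txnip and Arrdc4 followed the mix of cells as well as the level within classes, and a sum cannot tell fewer cells of a type from less RNA per cell. Txnip stood at 141 CPM in the combination, 194 in 2DG, 174 in aPDL1 and 173 in ctrl. Arrdc4 stood at 31.7, 32 and 33.6 CPM in the combination, 2DG and aPDL1, and at 50.9 in ctrl. With the 9 classes weighted by one fixed mix, Arrdc4 was at 36.8, 34.2, 36.5 and 37.1 CPM in the combination, 2DG, aPDL1 and ctrl, so the log2 ratio of 2DG over ctrl was -0.11 at the fixed mix and -0.67 over all cells. For Txnip the fixed mix gave 186, 236, 206 and 170 CPM in that order, and the log2 ratio of 2DG over ctrl was 0.47, against 0.17 over all cells. Scaling by TMM factors, which shifted every 2DG over ctrl ratio over all cells by -0.35 and in neutrophils by -0.61, gave -0.38 for Arrdc4 and 0.23 for Txnip at the fixed mix. Without the clusters mostly of ctrl, an alternative chosen after seeing the data, the fixed-mix ratio of Arrdc4 turned to 0.34 and that of Txnip was 0.27.

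**Figure D2:**
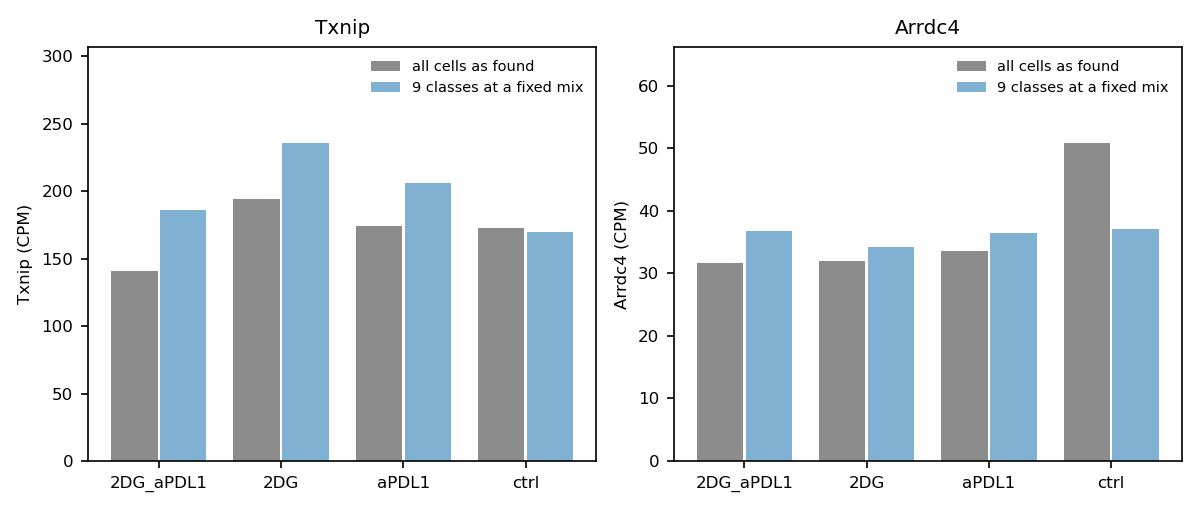
Txnip (left) and Arrdc4 (right) in CPM for each library, over all kept cells (grey) and with 9 classes at one fixed mix (blue), with no error bars. The ctrl bar of Arrdc4 is 50.9 over all cells and 37.1 at the fixed mix, close to the other libraries.

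The treatment comparisons asked what went with 2DG, without aPDL1 (2DG over ctrl) and with it (the combination over aPDL1), and what went with aPDL1 (aPDL1 over ctrl, and the combination set against 2DG). The comparisons share libraries and are not independent. A difference was called when it passed 1.5-fold and the library with more held 50 UMIs or over, in the 5 classes with at least 100 cells in every library.

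In monocytes or macrophages, Txnip was higher with either treatment alone than in ctrl and lower with both together than with either alone. It stood at 130 CPM in the combination (125 to 134), 196 in 2DG (190 to 203), 176 in aPDL1 (170 to 181) and 102 in ctrl (98.5 to 106), and no 2 of the intervals overlapped. The log2 ratio of 2DG over ctrl was 0.94 (0.87 to 1.01), past the fold, where 12.6% of genes were called higher. The log2 ratio of aPDL1 over ctrl was 0.78 (0.72 to 0.85), also past the fold, with 14.4% of genes called higher. Of the genes compared, 94.8% had a lower ratio than Txnip for 2DG over ctrl and 90.9% for aPDL1 over ctrl. With equally weighted subgates, aPDL1 over ctrl was 0.47, short of the fold. The combination over 2DG gave -0.60 (-0.67 to -0.53), past the fold, with 6.66% of genes called lower, but -0.51 with TMM factors, which is short of it, and the combination over aPDL1 gave -0.44 (-0.51 to -0.37), which was short of it. The share of cells with a Txnip UMI kept this order after each cell was thinned to 1000 UMIs, at 10.8% in the combination, 16.4% in 2DG, 13.9% in aPDL1 and 8.69% in ctrl (unthinned 45.7%, 62.8%, 55.7% and 43.5%). Thinning to a fixed total follows the share of UMIs, as CPM does, so it is no separate measure. The mean per cell was 1 Txnip UMI in the combination, 1.69 in 2DG, 1.32 in aPDL1 and 1.09 in ctrl, so ctrl was not lowest per cell. Median depth was 7122, 7836 and 6952 UMIs per cell in the combination, 2DG and aPDL1, and 10607 in ctrl.

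Much of the Txnip gap to ctrl moved with the clusters mostly of ctrl. They held 4.63% of the class in the combination, 8.16% in 2DG and 13.3% in aPDL1, against 62.3% in ctrl. In these clusters Txnip was at 136, 137 and 133 CPM in the combination, 2DG and aPDL1, and 58.1 in ctrl. In the other clusters it was at 129, 202 and 182 CPM, and 171 in ctrl. Without the clusters mostly of ctrl, an alternative chosen after seeing the data, the log2 ratio was 0.24 for 2DG over ctrl and 0.09 for aPDL1 over ctrl, neither past the fold. Within single clusters with at least 20 gated cells per library, Txnip was higher in 2DG than in ctrl in 10 of 11 and higher in aPDL1 than in ctrl in 10 of 11. It was lower in the combination than in aPDL1 in 9 of 11, and lower than in 2DG in 9 of 11. The clusters are parts of the same libraries and not replicates, and these counts carry no intervals. Cluster 9 held 28 ctrl cells. Over all genes of the class, the median log2 ratio was 0.13 for 2DG over ctrl and 0.11 for aPDL1 over ctrl. The exception for 2DG was cluster 11, where 33 2DG cells had 30.5 CPM and ctrl 51.8. In cluster 6, led by Nt5e, Vcan and Chil3, Txnip was at 95.1, 158 and 149 CPM in the combination, 2DG and aPDL1, and 61.0 in ctrl. In cluster 13, led by Fcrls and Vcam1, it was at 247, 285 and 220 CPM, and 250 in ctrl, so the libraries lay close together.

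**Figure D3:**
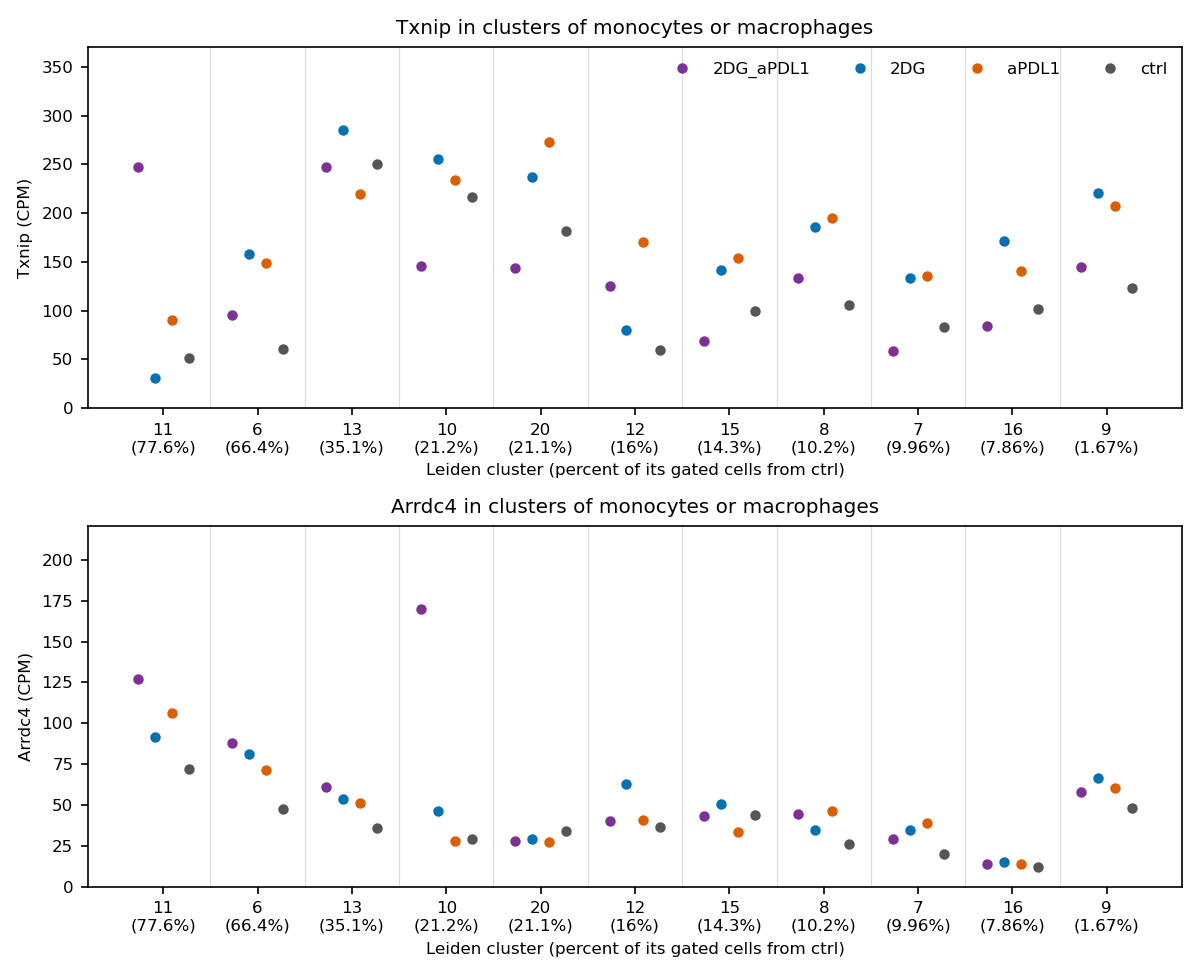
Txnip (top) and Arrdc4 (bottom) in CPM in 11 clusters of monocytes or macrophages, 1 point per library, with clusters ordered by the percent of their gated cells from ctrl. For Txnip, the 2DG point is above the ctrl point in 10 of 11 clusters and the combination point is below the 2DG point in 9 of 11.

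Arrdc4 in monocytes or macrophages showed no difference of this size over the class. Its log2 ratios were 0.05 for 2DG over ctrl (-0.08 to 0.17), 0.04 for the combination over aPDL1 (-0.09 to 0.16), 0.00 for aPDL1 over ctrl (-0.12 to 0.12) and -0.01 for the combination over 2DG (-0.14 to 0.12). Inside the class the libraries were not alike. In the clusters mostly of ctrl, Arrdc4 was at 99.5, 82.0 and 80.9 CPM in the combination, 2DG and aPDL1, and 56.5 in ctrl, and in the other clusters at 45.6, 45.1 and 42.0 CPM, and 31.6 in ctrl. As CPM, Arrdc4 was thus lower in ctrl in both sets of clusters, while the set with the higher levels held most of the ctrl cells. Ctrl cells were deeper, at medians of 10611 and 10602 UMIs in these sets, against 6783 to 8605 and 6965 to 7755 in the other libraries. Per cell of the whole class, the mean was 0.372, 0.417 and 0.353 Arrdc4 UMIs in the combination, 2DG and aPDL1, and 0.502 in ctrl. These means mix both sets of clusters. In the clusters mostly of ctrl, 99, 136 and 224 Arrdc4 UMIs came from 133, 178 and 396 cells in that order. The ctrl cells there held 1014 UMIs in 1709 cells. In the other clusters, 969, 774 and 827 UMIs came from 2737, 2004 and 2585 cells, and 362 from 1034 ctrl cells. Per cell, ctrl thus lay below the combination and 2DG and above aPDL1 in both sets. Without the clusters mostly of ctrl, the log2 ratio was 0.51 for 2DG over ctrl and 0.41 for aPDL1 over ctrl, and Arrdc4 was higher in 2DG than in ctrl in 10 of 11 single clusters. Among cells thinned to 2000 UMIs, 9.96% of those with a Txnip UMI (7.55% to 12.8%) and 7.42% of those without one (6.38% to 8.58%) had an Arrdc4 UMI in the combination. The shares were 10.7% and 9.21% in 2DG, 10.3% and 7.25% in aPDL1, and 9.6% and 8.11% in ctrl. The share was thus higher with a Txnip UMI in each library, although the intervals overlapped in each.

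The Txnip differences were not alike across the subgates of this class. Arginase-positive cells (2 or more Arg1 UMIs) had 156, 199 and 186 CPM of Txnip in the combination, 2DG and aPDL1, and 77.3 in ctrl, the widest gap to ctrl among the 6 subgates with at least 20 cells per library, with log2 ratios of 1.36 for 2DG and 1.27 for aPDL1 over ctrl. Complement-positive cells (3 or more C1q UMIs) had 141, 265 and 204 CPM, and 250 in ctrl, and here the ratio of 2DG over ctrl was 0.09. In Ly6c2-positive monocytes Txnip was at 68.3 CPM in the combination, 133 in 2DG, 154 in aPDL1 and 71.8 in ctrl, and the intervals of the combination and ctrl overlapped. Non-classical monocytes (2 or more of Ace, Adgre4 and Treml4) were at 76.3, 174 and 149 CPM, and 88.2 in ctrl, and there too the intervals of the combination and ctrl overlapped. Arg1 cells made up 46.9%, 51.2% and 45.8% of the class in the combination, 2DG and aPDL1, and 69.6% in ctrl, and with equal weight for each subgate the ratio of 2DG over ctrl was 0.69. Of these 6 subgates, Arg1 cells had the highest Arrdc4, at 63.2, 59.3 and 60.3 CPM in the combination, 2DG and aPDL1, and 54.7 in ctrl. Non-classical monocytes had the lowest in the combination, 2DG and aPDL1, at 16.7, 20.6 and 18.9 CPM, and had 26 in ctrl, where the cells of no other subgate had 24.9.

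**Figure D4:**
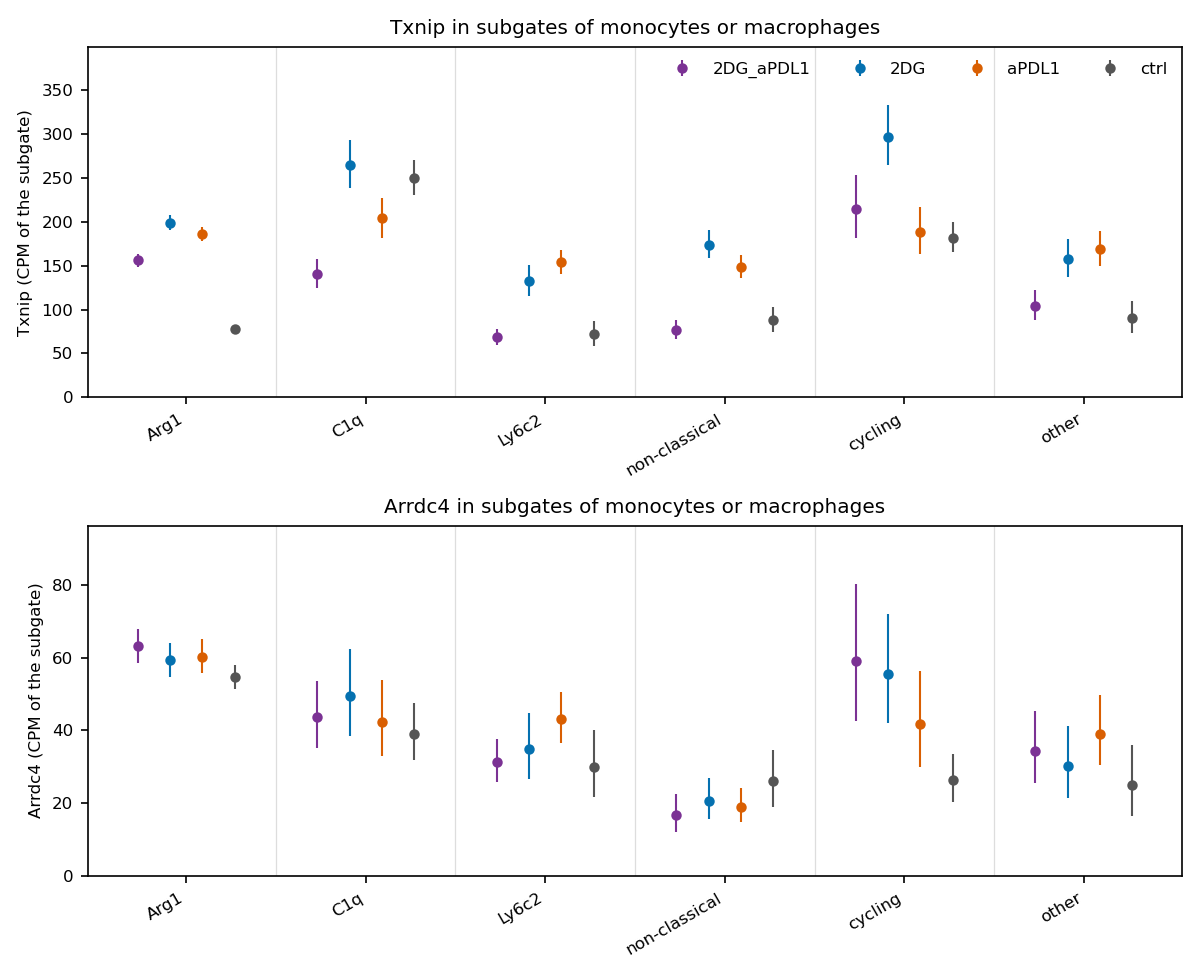
Txnip (top) and Arrdc4 (bottom) in CPM in 6 subgates of monocytes or macrophages and 4 libraries, with exact Poisson 95% intervals. In Arg1 cells the ctrl point of Txnip, 77.3, lies below those of the other libraries at 156 to 199, and in C1q cells the ctrl point is at 250, next to 2DG at 265.

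In CD8 T cells, Txnip was highest in 2DG. It stood at 145 CPM in the combination (138 to 152), 222 in 2DG (213 to 232), 156 in aPDL1 (148 to 164) and 172 in ctrl (145 to 202), the last from 111 cells. The combination over 2DG gave a log2 ratio of -0.62 (-0.71 to -0.52), past the fold, where 4.94% of genes were called lower, but it was short of the fold at -0.47 with classes from clusters and at -0.57 both with TMM factors and without ribosomal and mitochondrial genes in the total. The log2 ratio of 2DG over ctrl was 0.37 (0.13 to 0.63) and that of the combination over aPDL1 was -0.10 (-0.20 to -0.00), neither past the fold. Arrdc4 met the rule for 2DG over ctrl, at -0.76 with 54 UMIs in 2DG and 8 in ctrl, beside 8.83% of genes called lower, but its interval (-1.77 to 0.59) held 0. Of 4 resting T cell genes, 0 were past the fold higher and 2 lower for 2DG over ctrl, where 9.79% and 8.83% of all genes were, with a median log2 ratio of -0.90 beside -0.01 over all genes. For the combination over aPDL1, 2 were higher and 0 lower, where 5.0% and 5.78% of all genes were. Among them Klf2, a transcription factor of resting T cells, was at 141, 52.1 and 68.3 CPM in the combination, 2DG and aPDL1, and 128 in ctrl, lowest in the library where Txnip was highest.

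In dendritic cells, Txnip was lower in the combination than in aPDL1, at a log2 ratio of -0.68 (-1.02 to -0.36), past the fold, with 8.96% of genes called lower. The ratio of 2DG over ctrl was -0.31 (-0.56 to -0.06) there and 0.14 with classes from clusters. Conventional CD4 T cells had Txnip ratios between 0.10 and 0.26 in the 4 comparisons, and the combination was the highest library, at 199 CPM, against 166 in 2DG, 171 in aPDL1 and 155 in ctrl. In neutrophils the direction of the Txnip ratio of 2DG over ctrl hung on the scaling, at 0.23 on CPM and -0.38 with TMM factors. In neutrophils of the clusters mostly of ctrl, Txnip was at 788, 707 and 622 CPM in the combination, 2DG and aPDL1, and 399 in ctrl, and in the other clusters at 97.1, 163 and 150 CPM, and 99.9 in ctrl. Arrdc4 in neutrophils had a ratio of -0.50 (-0.86 to -0.18) for 2DG over ctrl, -0.11 as a mean of per-cell CPM and -1.12 with TMM factors. It was 0.11 without the clusters mostly of ctrl, which held most neutrophils, and this rests on 19 2DG and 21 ctrl UMIs. With classes from clusters, Arrdc4 in neutrophils was at 60.2 CPM in 2DG and 76.2 in ctrl. The 5 monocyte or macrophage markers summed to 277, 226 and 270 CPM in neutrophils of the combination, 2DG and aPDL1, and 93.8 in ctrl, with none at 0, and 1782 to 2202 in their own class. Cells outside the clusters mostly of ctrl were 25.8%, 24.2% and 31.5% of neutrophils in the combination, 2DG and aPDL1, at median depths of 6632, 7189 and 6493 UMIs, and 3.82% in ctrl, at 2987. The part of these cells in the neutrophil ratios was not tested.

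**Figure D5:**
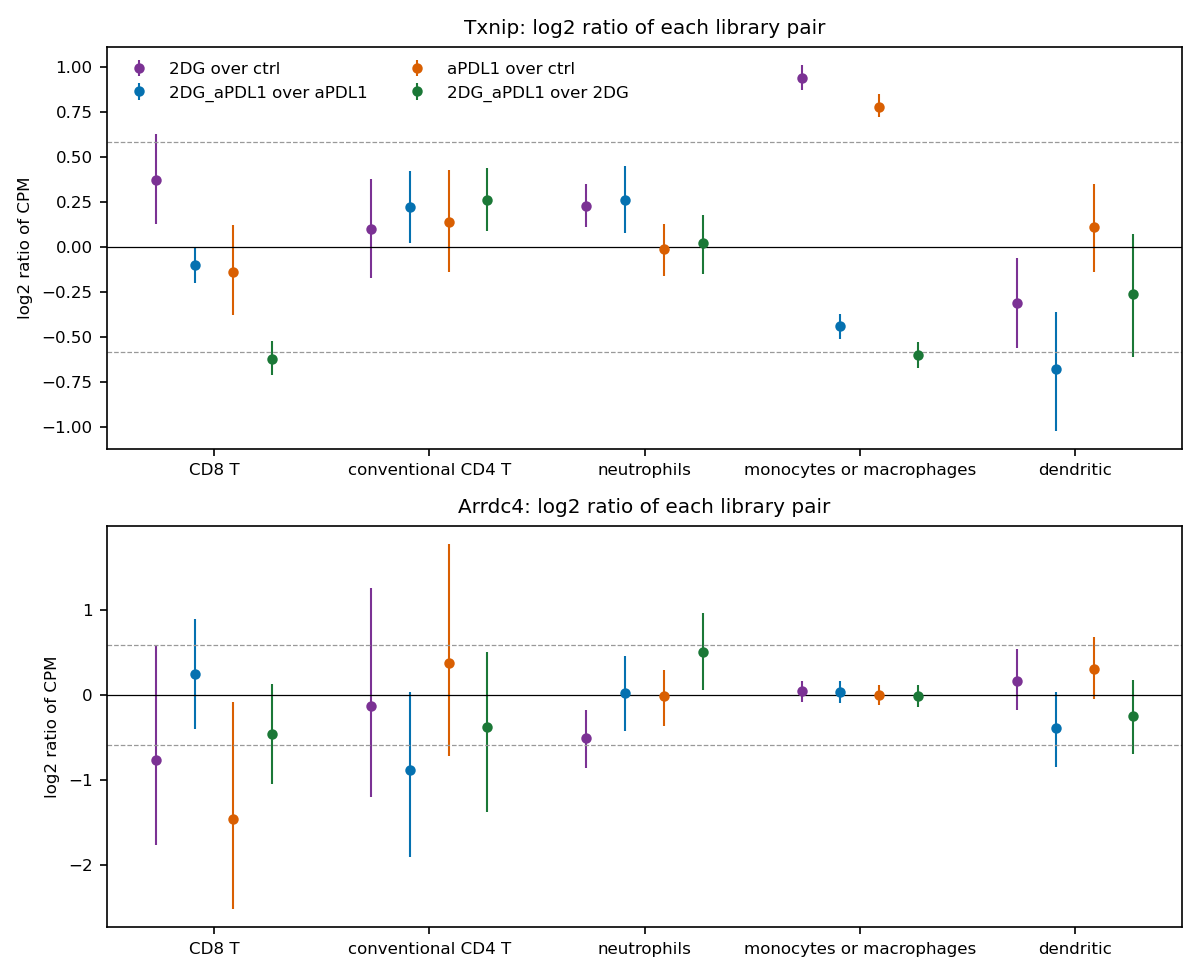
Log2 ratios of Txnip (top) and Arrdc4 (bottom) for 4 library comparisons in the 5 classes with at least 100 cells per library, with 95% counting intervals as bars and dashed lines at 1.5-fold. In monocytes or macrophages the Txnip ratios of 2DG and aPDL1 over ctrl are 0.94 and 0.78 and those of the combination are -0.44 and -0.60, while the Arrdc4 ratios lie between -0.01 and 0.05.

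The smaller classes, with under 100 cells in ctrl, are given as values without calls. B cells had 165 CPM of Txnip in the combination (150 to 182), 306 in 2DG (264 to 352), 218 in aPDL1 (191 to 248) and 144 in ctrl (112 to 182). Regulatory T cells had 83.2 CPM in the combination (66.7 to 103), 134 in 2DG, 141 in aPDL1 and 147 in ctrl. NK cells had 152 CPM in the combination, 224 in 2DG, 256 in aPDL1 and 189 in ctrl, the last from 29 cells. Txnip was lower in the combination than in aPDL1 in 7 of the 9 classes and lower than in 2DG in 7 of 9.

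Among the factors that act on both genes, Mlxip, which encodes MondoA, was counted in every main class. In monocytes or macrophages it was at 67.8 CPM in the combination, 92.0 in 2DG, 95.2 in aPDL1 and 60.3 in ctrl. Its log2 ratios there were 0.61 for 2DG over ctrl and 0.66 for aPDL1 over ctrl, both past the fold, and -0.49 for the combination over aPDL1. Neither passed the fold with TMM factors, at 0.45 and 0.49, or without the clusters mostly of ctrl, at 0.29 and 0.34, alternatives chosen after seeing the data. In CD8 T cells Mlxip was at 98.9, 142 and 123 CPM in the combination, 2DG and aPDL1, and 126 in ctrl. In conventional CD4 T cells its ratio of 2DG over ctrl was -0.48, where that of Txnip was 0.10. Mlxipl, which encodes ChREBP, had 45 to 59 UMIs per library in monocytes or macrophages, or 1.94 to 2.63 CPM, and at most 1 UMI per library in CD8 T cells and in neutrophils. Mlx, the common partner, was at 27.4, 20.3 and 21.6 CPM in monocytes or macrophages of the combination, 2DG and aPDL1, and 25.5 in ctrl. Of 3 other alpha-arrestins that could be compared in monocytes or macrophages, 0 passed the fold in either 2DG comparison. Arrdc3 was highest in ctrl there, at 74.9, 92.3 and 58.3 CPM in the combination, 2DG and aPDL1, and 126 in ctrl, and in dendritic cells it was lower by the fold in both 2DG comparisons, at log2 ratios of -1.93 and -0.75, where 5.51% and 8.96% of all genes were. Arrdc5 had at most 1 UMI per library in CD8 T cells, neutrophils and monocytes or macrophages.

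Of 7 genes of glucose entry and phosphorylation, 1 was past the fold higher and 4 lower for 2DG over ctrl in monocytes or macrophages, where 12.6% and 9.33% of all genes were, with a median log2 ratio of -0.60 beside 0.13 over all genes. For the combination over aPDL1, 0 were higher and 1 lower, where 4.27% and 7.62% of all genes were, with a median of -0.43 beside -0.09. Slc2a1, the transporter that Txnip protein acts on, was at 199, 227 and 246 CPM in the combination, 2DG and aPDL1, and 468 in ctrl. In the clusters mostly of ctrl it was at 536, 622 and 652 CPM, and 652 in ctrl, and in the other clusters at 183, 189 and 189 CPM, and 181 in ctrl. In neutrophils Slc2a1, the transporter Slc2a3 and hexokinase Hk2 were lower by the fold in both 2DG comparisons, where 15.1% of all genes were for 2DG over ctrl and 7.58% for the combination over aPDL1. Sesn2, from the stress response list below, was too, at log2 ratios of -1.24 and -0.91. In monocytes or macrophages Slc2a3 was lower by the fold in both, at -2.03 and -0.67, where 9.33% and 7.62% of all genes were. Of 4 thioredoxin system genes in monocytes or macrophages, 1 was past the fold for the combination over 2DG, where 4.50% of all genes were higher. This was Txnrd1 (thioredoxin reductase), at 312 CPM in the combination, 182 in 2DG, 209 in aPDL1 and 177 in ctrl. Of 5 genes of the amino acid and endoplasmic reticulum stress response that could be compared, 0 were higher and 4 lower for 2DG over ctrl, against 12.6% and 9.33% of all genes, with a median of -0.71 beside 0.13, and 0 passed the fold for the combination over aPDL1. Of 5 immediate early and heat shock genes, 2 were lower for 2DG over ctrl, against 9.33% of all genes. For the combination over aPDL1, 2 of them were higher and 2 lower, against 4.27% and 7.62% of all genes. The heat shock genes Hspa1a and Hspa1b were lower by the fold in both comparisons, in each of the 5 classes with at least 100 cells per library. Over these classes, 5.51% to 15.1% of all genes were lower for 2DG over ctrl and 5.78% to 8.96% for the combination over aPDL1. Hspa1b in monocytes or macrophages was at 44.1, 204 and 198 CPM in the combination, 2DG and aPDL1, and 370 in ctrl. The part of these genes in the Txnip values was not tested.

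Over the 32 points of 8 classes and 4 libraries, the genes whose levels were most like Txnip among 8609 were Sorl1, Ppp2r5a, Gm32401, Slc26a11 and Rlf, at Spearman correlations of 0.80 to 0.82, and the least like were Ppib, Rtraf and Tsta3, at -0.85 to -0.78. For Arrdc4 they were Apobr, Gm26885, Nfil3, Picalm and Slc16a3, at 0.89 to 0.91, and Gm49417, Gopc and Snhg12, at -0.93 to -0.90. Txnip and Arrdc4 had a correlation of -0.01 with each other, and Mlxip had 0.23 with Txnip and -0.73 with Arrdc4. The points share libraries and classes, so these values are descriptions.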

How the data were processed

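Raw UMI counts per gene and barcode, whole numbers with no normalization, were deposited as matrices, per the file headers. The matrix headers name Cell Ranger 7.0.0, while the submitters' processing notes name Cell Ranger 3.1.0 and mm10. How introns were treated was not given in the sources used here. Cells needed 500 detected genes or more, and mitochondrial UMIs could not exceed 10%. Doublets were scored with Scrublet in scanpy 1.11.5, and 0.8% per 1000 barcodes were removed (553 to 740 per library). The automatic threshold marked 0% to 3.5% and was not used.

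Gates needed 2 detected markers of 1 lineage, of T, NK, B, neutrophil, monocyte or macrophage, and dendritic markers, and T cells were parted by Cd4, Cd8a, Cd8b1 and Foxp3. Class names mean cells like that type by these markers. UMIs were summed per class and library and expressed as CPM. Log2 ratios used counts plus 0.5, and shares have exact Clopper-Pearson 95% intervals. The fixed mix weights classes by their mean share over the libraries. For clusters, 2000 variable genes, 30 principal components, 15 neighbours and resolution 1 were used, without Txnip and Arrdc4. The percent of genes called is over genes whose larger count in the pair reached 50 UMIs. TMM factors came from edgeR 4.0.16 (R 4.3.3). Other steps used Python 3.11.15, numpy 2.4.6, scipy 1.17.1 and pandas 2.3.3. The share of genes called and the likeness search were tested on simulated data. Alternatives were other cell filters, no doublet removal, stricter gates, classes from clusters, TMM, per-cell means, totals without ribosomal and mitochondrial genes, equally weighted subgates and other thinning.

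The genes described, the lists and the gates were chosen with earlier results of these data known. Named were both genes, list members with 50 UMIs in the higher library that passed 1.5-fold the same way in both 2DG comparisons or whose value stands beside Txnip or Arrdc4, and the 5 most and 3 least alike genes per member with a mean of at least 10 CPM. Promoter stretches are from RefSeq. Gene models are from GENCODE. Exact intervals cover counting error only.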

Additional observations from a re-analysis of the deposited data

Results flagged for a closer look

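For Txnip, the difference with 2DG pointed opposite ways without and with aPDL1, with both counting intervals clear of 0. In monocytes or macrophages the log2 ratio of the combination over aPDL1 minus that of 2DG over ctrl was -1.38, and in B cells it was -1.48. In CD8 T cells it was -0.47, and over all cells it was also -0.47. The CD8 T interval of the combination over aPDL1 (-0.20 to -0.00) barely cleared 0, and TMM factors shifted that ratio by 0.05. In CD8 T cells with checkpoint genes, 2DG over ctrl was 0.28 (-0.06 to 0.65) and the combination over aPDL1 -0.08 (-0.21 to 0.05). Intervals of both 2DG comparisons held 0 in the other CD8 subgates that could be compared as well. Over all cells the opposite directions were lost with TMM factors, at -0.18 for 2DG over ctrl and -0.24 for the combination over aPDL1. These differences were not tested, since each group was 1 library. The same number results when the aPDL1 ratios with and without 2DG are subtracted, because the 4 libraries are the same.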

How the results depend on the processing

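No paired analysis was possible because each group was 1 library and the labels give no replicate numbers. The 8 Txnip ratios in CD8 T cells and in monocytes or macrophages kept their direction under the alternatives run, except aPDL1 over ctrl in CD8 T cells, which was -0.14 and turned to 0.03 with classes from clusters, and 70 of 80 values stayed within the counting interval of the value in the report. The others were as follows. In monocytes or macrophages, TMM gave 0.78 for 2DG over ctrl, 0.61 for aPDL1 over ctrl, -0.34 for the combination over aPDL1 and -0.51 for the combination over 2DG. Equally weighted subgates gave 0.69 for 2DG over ctrl, 0.47 for aPDL1 over ctrl and -0.69 for the combination over 2DG. Leaving out the clusters mostly of ctrl, chosen after seeing the data, gave 0.24 for 2DG over ctrl and 0.09 for aPDL1 over ctrl. In CD8 T cells, classes from clusters gave -0.47 for the combination over 2DG. Of the calls past 1.5-fold, the combination over 2DG lost its call in monocytes or macrophages with TMM and in CD8 T cells with classes from clusters, with TMM and without ribosomal and mitochondrial genes in the total (-0.57 with each of the last 2), aPDL1 over ctrl with equally weighted subgates, and both single treatments over ctrl without the clusters mostly of ctrl. TMM shifts every ratio of a class by one amount, so these values differ from those on CPM by construction. For the other settings the cause was not tested. Over all cells, the Arrdc4 ratios of 2DG over ctrl and of aPDL1 over ctrl, -0.67 and -0.60, were both 0.00 without the clusters mostly of ctrl. With at least 20 UMIs in place of 50, 38 of 40 shares of genes called stayed within 1.5 times. The number of cells limits Arrdc4 in ctrl T cells, where 111 CD8 T cells held 8 UMIs.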

Other observations

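Neutrophils with chemokine transcripts (2 or more UMIs of Ccl3 and Cxcl3 together) had a higher Arrdc4 CPM than other neutrophils in the combination, aPDL1 and ctrl. In 2DG they did not differ beyond counting error. The level was 116 CPM in the combination (89.5 to 147), 53.8 in 2DG (34.1 to 80.8), 124 in aPDL1 (92.3 to 163) and 79.7 in ctrl (74.7 to 84.9), against 39.6, 51.5, 45.6 and 48.7 CPM in the other neutrophils in the same order. The log2 ratios were 1.53 in the combination, 0.08 in 2DG, 1.44 in aPDL1 and 0.70 in ctrl. For Txnip they were 0.60, 0.21, 0.39 and -0.17 in that order, and the 2DG interval (-0.04 to 0.44) held 0. Chemokine-positive cells made up 51.7% of neutrophils in the combination, 34.8% in 2DG and 42.7% in aPDL1, against 78% in ctrl. Gated neutrophils outside the clusters mostly of ctrl had 24.7 to 26.7 CPM of Arrdc4, and their part in this contrast was not tested. Differences between libraries were not tested.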
